A study of Sus scrofa with 32 samples.

Results

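Distal H3K27ac sites gained with differentiation are stretches of the pig genome, away from the ends of genes, at which acetylation of lysine 27 of histone H3 (H3K27ac) appeared between 0 h and 60 h in untreated muscle satellite cells. They were found by merging the peaks of the 8 H3K27ac lists wherever peaks overlapped by at least 1 bp. A region was kept if it lay over 2.5 kb from both ends of every protein-coding gene of Sscrofa11.1 and had a peak in both untreated 60 h libraries and in neither untreated 0 h library. This rule gave 5145 sites, which were 13.3% of the 38762 merged regions and 18.9% of the 27267 distal ones. The presence of H3K27ac in untreated cells at 60 h, and its absence at 0 h, is what the sites were chosen by, so these values are a description and were not tested.

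CUT&Tag, which cuts and tags the DNA beside an antibody-bound histone, was run on satellite cells of the pig, which renew skeletal muscle and give rise to new fibres. The groups were untreated cells at 0 h (WT_0h) and 60 h (WT_60h) of differentiation and cells given SGC-CBP30 at the same times (CBP_0h and CBP_60h), with 2 libraries of H3K27ac, H3K4me3 and H3K27me3 in each. SGC-CBP30 is a small molecule that occupies the acetyl-lysine pocket of the CBP and p300 bromodomains. Per the labels it was given for 48 h in proliferation and 60 h in differentiation, and whether CBP_60h cells had both exposures was not stated there. The dose reads 5 uM/ml, an unclear unit, and the labels hold WT and CBP in a genotype field, although a compound is described. The labels conflict further: the treatment field reads proliferation for the 60 h samples too, and C3H cells grown in RPMI are named beside the pig satellite cells. No group carries a vehicle label. Nothing says that the libraries of a group came from separate cultures, so the spread between them may be technical.

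Enhancers are stretches of DNA, often far from a gene, that bind transcription factors and raise the transcription of genes in contact with them. Nucleosomes beside active enhancers and promoters carry H3K27ac, which CBP and p300 deposit, while H3K4me3 marks chiefly active promoters and H3K27me3 marks chromatin silenced by Polycomb complexes. During muscle differentiation, MYOD1 and MYOG bind many such elements with partners of the MEF2 family, and p300 and CBP are known co-activators there.

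Only peak lists were measured here, with their depth not given in the sources used here. H3K27ac lists held 23437 and 21694 peaks in WT_60h, 19531 and 17338 in WT_0h, 17019 and 13750 in CBP_60h, and 10972 and 8969 in CBP_0h. The sites gained and the sites without a peak in treated cells follow the order of these lengths, whose part in the results was not tested. H3K4me3 near the gene ends of MYOD1, MYF5, PAX7 and DES was present in untreated cells at both times and that of MYOG at 60 h, genes of the muscle lineage. PTPRC, PECAM1, ADIPOQ and SOX10, which mark immune, endothelial, fat and glial cells, had 0 kb of H3K4me3 in every library, but other genes of such lists carried it, and 5 of 15 adipocyte genes were at 0 throughout.

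The sites were short and lay mostly inside genes. Their median length was 774 bp (295 to 5791 bp), against 1308 bp for the 4559 stable sites, which are distal regions with a peak in both libraries of WT_0h and of WT_60h. Together they spanned 4.62 Mb of 19 chromosomes, from 14.03% of the distal regions of chromosome 10 to 26.3% of those of chromosome X. A protein-coding gene held 3478 sites (67.6%, against 63.8% of stable sites), another 1261 lay outside genes but within 100 kb of one, and 406 lay farther away. Whether a site is exonic or intronic is not reported here. The median distance to the nearest gene end was 24.3 kb. It was at most 10 kb for 1352 sites, 10 to 50 kb for 2207 and over 50 kb for 1586. A long noncoding RNA gene ended within 1 kb of 134 sites (2.60%, against 3.77% of stable sites), and a miRNA gene within 1 kb of 8.

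At the edges of the rule, values passed smoothly from members to non-members. The member closest to a gene end lay 2505 bp away and the nearest region left out 2498 bp. The 138 members at 2.5 to 3 kb had a median −log10 p of 6.47, and the 154 gained regions at 2 to 2.5 kb one of 6.68. This p is the peak caller's own, deposited by the authors, and the lower value of the pair of WT_60h libraries was used. Over all members it ran from 3.43 to 123 with a median of 6.91. A further 3722 distal regions had a peak in 1 WT_60h library and none in WT_0h, with a median of 5.39.

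In treated cells at 60 h, about 40% of the sites carried H3K27ac. A peak was present at 43.4% of them in CBP_60h replicate 1 and at 36.5% in replicate 2 (39.97% ± 4.91, SD, n = 2). Both CBP_60h libraries had a peak at 1534 sites (29.8%), 1 library had one at 1045 (20.3%) and neither at 2566 (49.9%). Among all 10681 distal regions with H3K27ac in both WT_60h libraries, members included, 43.9% had a peak in both CBP_60h libraries and 37.8% in neither. Gained distal sites thus lay below this background, and the stable sites above it, at 59.7%. For the 3332 gained regions nearer to gene ends the share in both libraries was 25.7%. Their order against the distal sites turned between libraries, at 44.5% in CBP_60h replicate 1 and 29.4% in replicate 2. Site classes are not replicates, so these shares were not tested against each other. In bulk chromatin, fewer cells with a mark and less of the mark per cell cannot be told apart.

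Few of the sites had H3K27ac in treated cells at 0 h. A peak was present at 4.49% and 2.93% of sites in the CBP_0h libraries (3.71% ± 1.10, SD, n = 2), against 64.4% and 58.5% of stable sites. Stable sites were chosen by a peak in WT_0h and gained sites by its absence, which favours this contrast. The gap between CBP_60h and CBP_0h at gained distal sites was 36.3 percentage points, and the groups did not overlap. The exact permutation test, two-sided, gave p = 0.33, the smallest that 2 against 2 libraries allow. At 1427 sites (27.7%) both CBP_60h libraries and neither CBP_0h library had a peak, against 14.1% of all distal regions. These sites made the same switch from absent to present in treated cells as in untreated ones. The reverse occurred at 49 sites, which had a peak in both CBP_0h and neither CBP_60h library. In all, 124 sites (2.41%) had a peak in both CBP_0h libraries, against 21.2% of all distal regions. All distal regions include ones without a peak in WT_60h or with one in WT_0h. The rule itself thus favours both the higher 27.7% and the lower 2.41% among the sites. When every H3K27ac list was held to the length of the shortest, its 8969 strongest peaks, the rule gave 1772 sites. Of those, 49.3% and 49.6% had a peak in CBP_60h and 15.2% and 15.9% in CBP_0h.

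**Figure D1:**
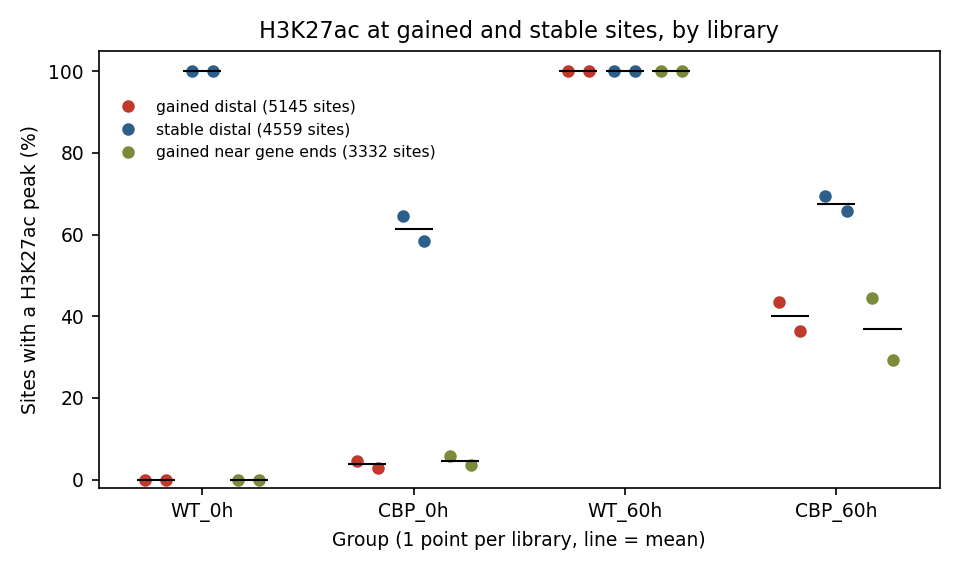
Share of sites with an H3K27ac peak (y axis, percent) in each of the 8 libraries (points, line at the mean of 2) for gained distal, stable distal and gained gene-end sites. Values of 0 and 100% in untreated cells are set by the rule; gained distal sites stand at 43.4 and 36.5% in CBP_60h and at 4.49 and 2.93% in CBP_0h.

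The length of H3K27ac at each site was also fitted, which largely restates the presence of peaks and is no separate support. All 5145 sites passed the length filter through WT_60h, the group that chose them. In a limma fit of log2(bp + 200) over 28541 regions, 1457 of the 5145 sites (28.3%) were longer in CBP_60h than in CBP_0h at an adjusted p below 0.05, against 22.2% of all regions tested. Another 48 sites (0.933%) were shorter, against 11.4% of all regions. No base was listed in either CBP_0h library at 1423 of the 1457 sites, and each of the 1457 had a peak in both CBP_60h libraries. Groups with no listed base add no spread, so such p values rest on the variance moderated across regions. The shorter sites numbered 86 without CBP_0h replicate 2, and 236 after quantile scaling.

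The share of sites with H3K27ac in CBP_60h was higher where it was stronger in WT_60h. From the weakest to the strongest of 4 bands of about equal size in the −log10 p in WT_60h (limits at 5.29, 6.91 and 9.21), 19.8%, 23.1%, 27.3% and 48.9% of gained distal sites had a peak in both CBP_60h libraries. Over the same limits the shares for stable sites were 37.5%, 38.0%, 47.9% and 75.6%. For gained regions near gene ends they were 16.0%, 16.3%, 18.0% and 39.4%. Within each of the 4 bands the gained distal sites thus lay below the stable ones and above the gene-end ones. The rise over the bands was seen in each CBP_60h library, from 31.9 to 63.2% in replicate 1 and from 26.0 to 54.3% in replicate 2. Peaks in WT_60h covered a median of 910.5 bp in the strongest band and 499.5 bp in the weakest. The share differed less with distance: 26.6% of sites within 10 kb of a gene end were kept in both CBP_60h libraries, 30.7% at 10 to 50 kb and 31.3% beyond.

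**Figure D2:**
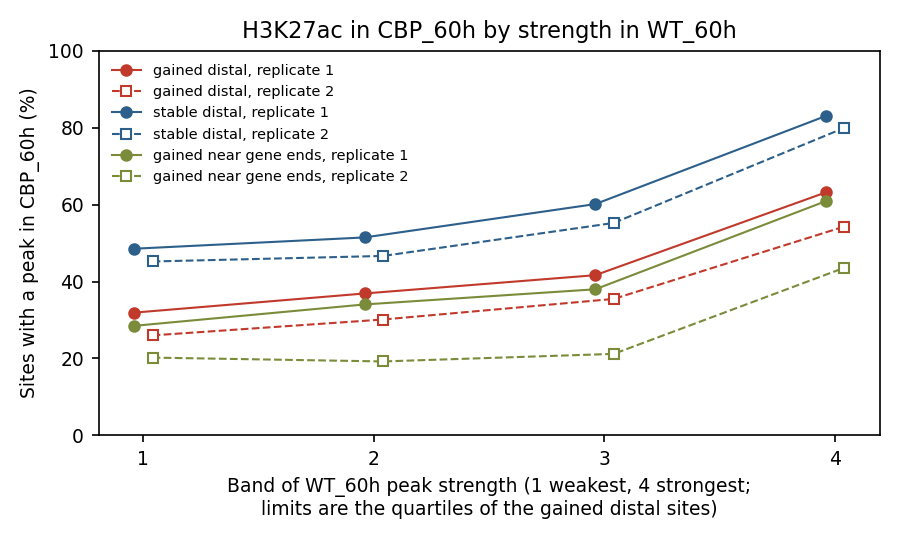
Share of sites with an H3K27ac peak in each CBP_60h library (y axis, percent; replicate 1 filled, replicate 2 open) in 4 bands of peak strength in WT_60h (x axis). The gained distal sites rise from 31.9 to 63.2% and from 26.0 to 54.3%, below the stable sites in every band.

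A minority of the sites also carried the promoter mark, and more did so at 60 h. H3K4me3 overlapped 10.4% of sites in each WT_0h library and 16.0% in each WT_60h library, a gap of 5.63 points with no overlap between groups (exact permutation test, two-sided, p = 0.33). At stable sites the means were 18.1% and 19.3%, and at gained regions near gene ends 79.7% and 86.6%, so the rise was not particular to the distal sites. H3K4me3 in both WT_60h libraries and neither WT_0h library was found at 235 gained distal sites (4.57%), against 2.13% of all distal regions. The opposite was found at 10 sites (0.194%), against 1.02%. Another 488 sites had H3K4me3 in all 4 untreated libraries and 4246 had it in none. In treated cells the shares were 8.96% and 9.04% in CBP_0h and 13.6% and 14.3% in CBP_60h, each below the untreated group of the same time. The means were also lower in treated cells at stable sites, at 11.9% in CBP_0h and 17.7% in CBP_60h. So were those of gained regions near gene ends, at 76.4% and 83.9%. Of the 235 sites that gained H3K4me3 in untreated cells, 103 had it in both CBP_60h libraries and 106 in neither.

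Sites with H3K4me3 lay nearer to genes. It was present in both WT_60h libraries at 27.4% of sites within 10 kb of a gene end, at 13.2% of those 10 to 50 kb away and at 6.75% beyond. The 235 sites that gained it had a median distance of 7.94 kb, and 10 of them lay within 1 kb of the end of a long noncoding RNA gene. H3K27ac was present in both CBP_60h libraries at 36.6% of these 235 sites and at 29.4% of the 4246 sites without H3K4me3. H3K27me3, the Polycomb mark, was nearly absent. It overlapped 0.0583% and 0.117% of sites in WT_0h, 0.155% and 0.0972% in WT_60h, 0.0583% and 0.0777% in CBP_60h, and 0.719% and 0.389% in CBP_0h. The H3K27me3 lists of CBP_0h were also the longest, with 19317 and 14723 peaks against 1338 to 13258 in the other 6 libraries.

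**Figure D3:**
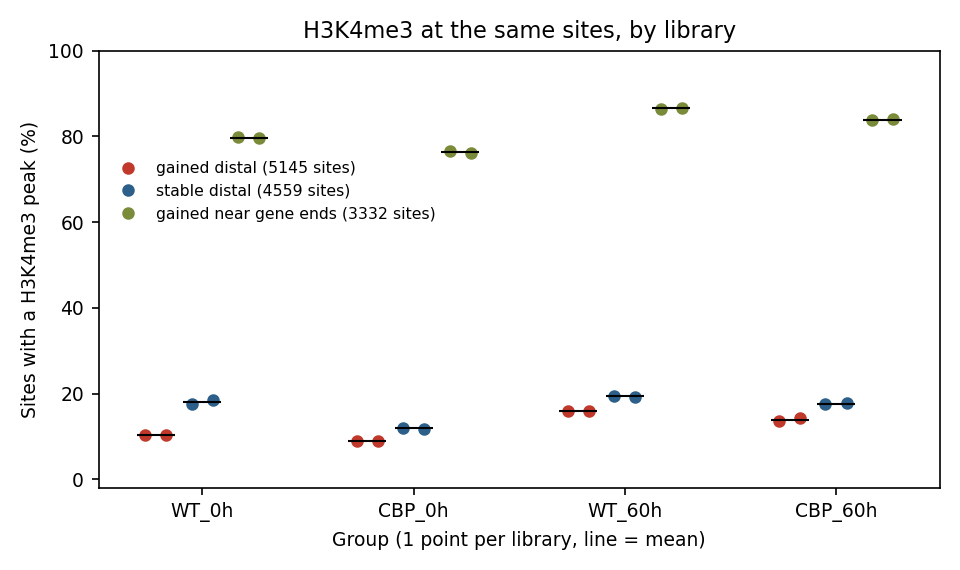
Share of sites with an H3K4me3 peak (y axis, percent) in each of the 8 libraries (points, line at the mean of 2). Gained distal sites go from 10.4% in both WT_0h libraries to 16.0% in both WT_60h libraries and stand at 13.6 and 14.3% in CBP_60h.

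The strongest sites kept H3K27ac in treated cells in most cases. Of the 10 with the highest −log10 p in WT_60h, 9 had a peak in both CBP_60h libraries, and none had one in CBP_0h. The first was chr10:42915346-42915944, inside EPC1, which encodes a subunit of the NuA4 acetyltransferase complex. Its fold enrichment was 44.6 and 42.4 in WT_60h, and H3K27ac covered 588 and 590 bp there and 527 and 518 bp in CBP_60h. H3K4me3 covered all 599 bp of it in the 4 libraries of 60 h and 471 to 542 bp in those of 0 h. The second, chr4:30832186-30833308 inside OXR1, also had H3K4me3 in all 8 libraries. The third, chr14:85518735-85520701, lay 22.3 kb from RGR and had none. Its H3K27ac covered 1914 and 1659 bp in WT_60h and 1285 and 1411 bp in CBP_60h. The exception was chr6:88799639-88801055, 7.58 kb from FAM229A, with 1351 and 1381 bp in WT_60h and no listed base in CBP_60h. H3K4me3 was listed there in all 8 libraries. Others lay in or near TTC23, HMGB1, PIAS1, UBE2V1 and SKP2, the last a ubiquitin ligase subunit that marks cell cycle inhibitors for degradation.

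The largest increases from CBP_0h to CBP_60h were at long sites inside genes. At chr2:141506236-141510127, in CXXC5, H3K27ac covered 3892 and 3094 bp in CBP_60h and no base in CBP_0h. In WT_60h it covered 1089 and 610 bp, less than in treated cells. Sites in STARD13, LIMA1, PLXNA1 and DCLK1 followed, with means of 2720 to 2918 bp in CBP_60h and none in CBP_0h. LIMA1 encodes an actin-binding protein. The LIMA1 site, chr5:16113219-16116847, had over 3 kb of H3K4me3 in all 8 libraries. The 6 largest decreases had no listed base in CBP_60h and 627.5 to 830.5 bp on average in CBP_0h. They lay near C3H2orf91 and in ANKRD31, NOTCH2, MAN2A1, ZFHX3 and FGGY. The site in NOTCH2, a receptor that holds satellite cells undifferentiated, was chr4:101085872-101086712, with 714 and 659 bp in CBP_0h and 743 and 397 bp in WT_60h. At these 6 sites H3K27ac was thus present in treated cells before differentiation and in untreated cells after it.

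Many sites lay close together. Joining members no farther apart than 5 times the distance limit of 2.5 kb gave 3770 groups, of which 2946 were single sites and 269 held 3 or more, with 1089 sites in all. Single sites were kept in both CBP_60h libraries in 27.3% of cases, sites in pairs in 29.0%, and sites in groups of 3 or more in 37.5%. In groups of 5 or more, of which there were 63, the share was 40.9%. The largest group held 18 sites over 54.6 kb of RUNX1 (chr13:198405566-198460191), and a second RUNX1 group held 10. RUNX1 encodes a transcription factor known chiefly from blood formation and also active in satellite cells. NFIC, for a factor of the nuclear factor I family, also had a group of 18, followed by SEPT9 with 14, AHDC1 and TNS1 with 11 each, and COL5A1 with 10. These groups differed in treated cells. All 14 sites in SEPT9, which encodes a septin of the cytoskeleton, had a peak in at least 1 CBP_60h library. All 10 of COL5A1, a fibrillar collagen gene, had none in either, with 9.57 and 7.89 kb of H3K27ac in WT_60h. The remaining 3 of the 10 largest groups, at PKM, CCNY and DCLK1, held 8 sites each, of which 2, 3 and 2 were kept in both libraries.

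RUNX1 had the most sites within 100 kb, with 37, of which 36 lay in its gene body. H3K27ac over them summed to 37.5 and 34.3 kb in WT_60h, 21.1 and 18.8 kb in CBP_60h, and 0.453 and 0 kb in CBP_0h. In CBP_60h 22 sites had a peak in both libraries and 8 in neither. DCLK1, a microtubule-associated kinase gene, had 29 sites, with 24.6 and 24.7 kb in WT_60h and 14.7 and 16.2 kb in CBP_60h. ZBTB20, for a zinc finger repressor, had 22 sites, all in its gene body, and kept fewer of them: 4 had a peak in both CBP_60h libraries and 16 in neither. Its sum was 16.0 and 15.7 kb in WT_60h and 4.27 and 5.40 kb in CBP_60h. TNS1, for a protein of focal adhesions, had 20 sites, with 16.4 and 14.8 kb in WT_60h and 6.56 and 4.41 kb in CBP_60h. NFIC had 19 and SAMD4A, for an RNA-binding repressor of translation, 18. DOHH, FZR1, SMIM24 and LOC102159087, with 18 each, lie beside NFIC and share its sites. The rule asked for a peak in WT_60h at each site, so WT_60h standing above the treated groups is part of the choice. Between the treated groups, whose libraries the rule did not use, CBP_60h lay above CBP_0h in every library at these genes. By asking for a peak at 60 h and none at 0 h in untreated cells, the rule favours that direction. The CBP_0h lists were also the shortest, and the part of either was not tested.

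**Figure D4:**
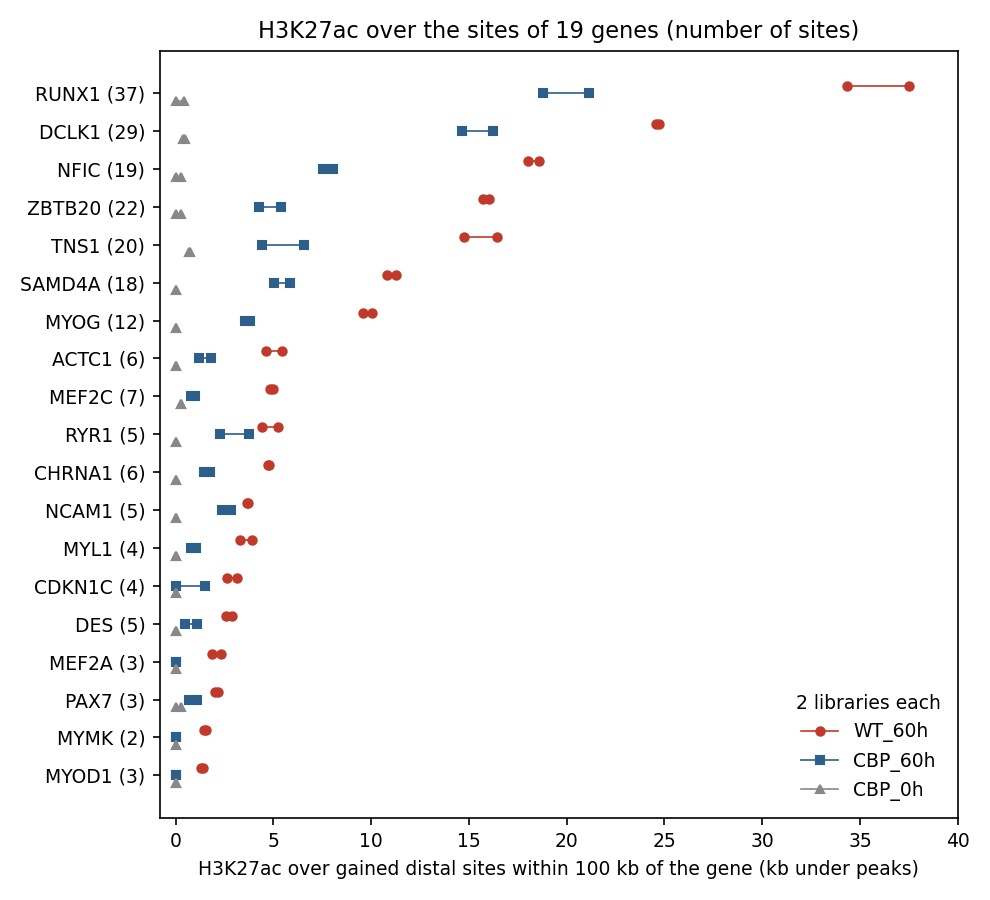
H3K27ac (x axis, kb under peaks) summed over the gained distal sites within 100 kb of 19 genes (y axis, number of sites in brackets), with 2 libraries each of WT_60h, CBP_60h and CBP_0h. They are the 6 loci with the most sites and 13 muscle genes; at RUNX1 the WT_60h libraries stand at 37.5 and 34.3 kb and CBP_60h at 21.1 and 18.8 kb.

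H3K4me3 near the ends of these genes, a measure that the rule did not use, differed among them. It was taken as the kb covered by H3K4me3 peaks up to 5 kb from each gene's ends. H3K4me3 peaks covered more of the genome in both WT_60h lists than in either WT_0h list. RUNX1 had 2.495 and 2.785 kb in WT_0h, 5.21 and 5.22 kb in WT_60h, 2.24 and 2.33 kb in CBP_0h, and 4.24 and 3.62 kb in CBP_60h. By limma it rose with differentiation (log2 change 0.86 ± 0.08, SE, adjusted p = 0.000381) and was lower in CBP_60h than in WT_60h (−0.37 ± 0.08, adjusted p = 0.025). The lower call at RUNX1 was not followed under other settings. DCLK1 rose too, from 1.64 and 1.46 kb to 3.89 and 3.56 kb (limma, adjusted p = 8.3e-05), and NFIC from 2.54 and 2.86 kb to 3.74 and 3.84 kb (limma, adjusted p = 0.00228). ZBTB20 stayed between 2.35 and 2.70 kb in the 8 libraries, although its 22 sites gained H3K27ac. TNS1 had no H3K4me3 within 5 kb of its ends in any library.

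A panel of 32 muscle genes was followed by name. Of these, 23 had a gained distal site within 100 kb, 8 (TNNT2, CKM, DMD, CACNA1S, CDH15, PAX3, ENO3 and PPARGC1A) had none, and MYH3 was not found under that symbol. A site within 100 kb of a panel gene may lie in or nearest to another gene. MYOG, the factor that starts terminal differentiation, had the most, with 12 sites between chr9:113751361 and chr9:113880580. It was the nearest gene to 4 of them, and the others lay in or nearest to PPFIA4, ADORA1 and MYBPH. H3K27ac over the 12 sites summed to 9.58 and 10.0 kb in WT_60h and 3.82 and 3.54 kb in CBP_60h, with no listed base in CBP_0h. Of the 12 sites, 5 had a peak in both CBP_60h libraries and 5 in neither. Of the 4 nearest to MYOG, 1 had a peak in both and 2 in neither. The site closest to the gene, chr9:113788869-113789814, was 3.56 kb away and covered 946 and 729 bp in WT_60h and 494 and 659 bp in CBP_60h. The next one, chr9:113790247-113791650, covered 1340 and 1404 bp in WT_60h but 0 and 444 bp in CBP_60h. The 2 that followed it had no listed base in CBP_60h, among them chr9:113801238-113802405 with 1099 and 1145 bp in WT_60h. H3K4me3 at MYOG was listed at 0 kb in WT_0h and CBP_0h, at 4.03 and 3.93 kb in WT_60h and at 2.62 and 2.73 kb in CBP_60h. The 60 h groups differed by −0.50 ± 0.05 on the log2 scale (SE, limma, adjusted p = 0.0026).

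The other regulators of myogenesis in the panel had 2 to 7 sites each. Sites of the whole list of myogenic factors and partners were counted by nearest gene. Of these 145 sites, 51 (35.2%) had a peak in neither CBP_60h library, against 49.9% of all members. RUNX1 alone was nearest to 37 of the 145, of which 8 had a peak in neither. The panel genes given here, with sites counted within 100 kb, thus do not stand for the list. MYOD1, which commits cells to muscle, had 3 sites, the nearest at chr2:41444949-41445436, 20.7 kb from the gene. They summed to 1.30 and 1.42 kb in WT_60h, with no listed base in CBP_60h. H3K4me3 near MYOD1 ends was nevertheless 3.73 kb in both WT_60h libraries and 3.42 and 3.29 kb in CBP_60h. It did not pass the test between these groups of 60 h (limma, log2 change −0.14 ± 0.09, adjusted p = 0.358). At 0 h it was 1.13 and 0.857 kb in WT_0h and listed at 0 kb in both CBP_0h libraries. That difference passed (limma, log2 change −1.57 ± 0.09, adjusted p = 0.0002). H3K4me3 peaks as a whole also covered less of the genome in CBP_0h than in WT_0h. MYF5 and MYF6, neighbours that act beside MYOD1, shared 2 sites, at chr5:100669727-100670331 and chr5:100771639-100772333, with no listed base in CBP_60h. MEF2C, a partner of the myogenic factors, had 7 sites that summed to 4.83 and 4.97 kb in WT_60h, 0.974 and 0.813 kb in CBP_60h and 0.297 and 0.266 kb in CBP_0h. One of the 7 had a peak in both CBP_60h libraries. H3K4me3 near MEF2C ends was 4.32 and 3.49 kb in WT_60h and listed at 0 kb in the other 6 libraries. Inside MEF2C, however, its site chr2:96272626-96273008 had 383 bp of H3K4me3 in both WT_60h libraries and 357 and 383 bp in CBP_60h. At chr2:96277234-96277842 it had 407 and 357 bp in WT_60h and 609 and 527 bp in CBP_60h. The 3 sites of MEF2A, between 57.2 and 74.3 kb from that gene, had no listed base in CBP_60h.

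Genes of the contractile apparatus in the panel had 1 to 6 sites each. Over the whole contractile list, counted by nearest gene, 45.5% of 33 sites had a peak in neither CBP_60h library, against 49.9% of all members. ACTC1, cardiac actin, which is also made in young muscle fibres, had 6 sites with 5.44 and 4.63 kb in WT_60h and 1.19 and 1.82 kb in CBP_60h. One of the 6, chr1:136359052-136361276, kept a peak in both CBP_60h libraries, and it lay 72.5 kb from ACTC1, nearest to GJD2. MYL1, a fast myosin light chain, had 4 sites, of which chr15:113100485-113101578 was kept, with 1076 and 1088 bp in WT_60h and 770 and 1045 bp in CBP_60h. The other three, nearer to MYL1, had no listed base there. ACTA1, skeletal actin, had 2 sites, and TTN, TNNI1 and MYH7 had 1 each, at all of which no base was listed in CBP_60h. The TTN site lay 89.9 kb away, inside CCDC141, and the TNNI1 site 76.6 kb away, nearest to NAV1. DES, for the muscle intermediate filament desmin, had 5 sites in the neighbouring SPEG gene, a muscle kinase, with 2.89 and 2.60 kb in WT_60h and 1.10 and 0.462 kb in CBP_60h.

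H3K4me3 was present at most of these genes at 60 h and shorter there in treated cells. ACTC1 had 7.38 and 7.63 kb in WT_60h and 4.93 and 4.86 kb in CBP_60h, with 0 kb in the 4 libraries of 0 h (limma CBP_60h against WT_60h, log2 change −0.57 ± 0.04, adjusted p = 0.000662). ACTA1 had 4.55 and 4.51 kb against 2.01 and 1.97 kb (limma, adjusted p = 0.000185), and TTN, the giant sarcomere spring, 5.13 and 5.14 kb against 0.925 and 1.59 kb (limma, adjusted p = 0.00187). MYL1 had 4.12 and 4.45 kb in WT_60h and 0 kb in CBP_60h. TNNI1, slow troponin I, did not pass the test, with 3.41 and 3.35 kb against 2.85 and 3.25 kb (limma, adjusted p = 0.273). DES had 5.34 and 5.27 kb against 3.77 and 4.12 kb (limma, adjusted p = 0.0209). That call was lost when any of the 4 libraries of 60 h was left out, with adjusted p of 0.0516 to 0.103.

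At genes for excitation and fusion, CHRNA1, which encodes the alpha subunit of the acetylcholine receptor in muscle, had 6 sites. A run of 4 lay 3.24 to 9.41 kb from the gene, of which 3 kept a peak in both CBP_60h libraries. The strongest, chr15:80700531-80701302, covered 722 and 772 bp in WT_60h and 293 and 417 bp in CBP_60h. H3K4me3 at CHRNA1 was 5.02 and 4.83 kb in WT_60h and 3.35 and 3.69 kb in CBP_60h (limma, log2 change −0.43 ± 0.06, adjusted p = 0.00626). The 5 sites of RYR1, the calcium release channel of the sarcoplasmic reticulum, lay in the neighbouring ACTN4 gene, and one, chr6:47516484-47519332, covered 2552 and 2034 bp in WT_60h and 2109 and 2277 bp in CBP_60h. H3K4me3 at RYR1 was 2.63 and 2.47 kb in WT_60h and 1.65 and 1.99 kb in CBP_60h (limma, adjusted p = 0.0294). This call was lost with a smaller pseudocount, with the replicate number as a block and without any of 3 libraries, CBP_60h replicate 1 or either WT_60h replicate (adjusted p 0.0507 to 0.117). MYMK, the fusogen myomaker, had 2 sites with 1.58 and 1.44 kb in WT_60h and no listed base in CBP_60h. Its site chr1:273114404-273115189 was one of the few with H3K27me3, which covered all 786 bp in both CBP_0h libraries and 268 bp in WT_0h replicate 2. NCAM1, an adhesion molecule of fusing myoblasts, kept H3K27ac at 3 of 5 sites in both CBP_60h libraries, with 3.63 and 3.73 kb in WT_60h and 2.81 and 2.37 kb in CBP_60h.

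Among growth and cell cycle genes of the panel, CDKN1A, the cyclin-dependent kinase inhibitor p21, had 2 sites with no listed base in CBP_60h. Its H3K4me3 was 6.09 and 5.80 kb in WT_60h and 3.804 and 3.878 kb in CBP_60h (limma, adjusted p = 0.0021). CDKN1C, the related inhibitor p57, had 4 sites, with 2.63 and 3.16 kb of H3K27ac in WT_60h and 1.52 and 0 kb in CBP_60h. Those of IGF2, a growth factor of muscle, stood likewise at 1.64 and 1.86 kb and at 1.29 and 0 kb, so that 1 CBP_60h library decided both. The IGF2 sites lay 88.3 and 87.6 kb from that gene, nearest to LOC110259183. IGFBP5, which binds insulin-like growth factors, had 2 sites. The one kept in both CBP_60h libraries lay 51.0 kb away, nearest to IGFBP2, and the one inside IGFBP5 had no listed base there. PAX7, the defining factor of satellite cells, had 3 sites in its gene body, of which chr6:77219134-77220386 covered 910 and 1069 bp in WT_60h and 1093 and 685 bp in CBP_60h. H3K4me3 at PAX7 did not change with differentiation by the test (limma, log2 change −0.06 ± 0.09, adjusted p = 0.586). HEYL, a Notch target, had 1 site, with no listed base in CBP_60h.

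Of the 17 gene lists, that of regulators of myogenesis had the highest share of genes beside sites. A protein-coding gene was counted if it was the nearest to a site within 100 kb, which held for 2494 genes, or 12.8% of 19550. Of 38 myogenic factors and partners 26 were so, with 145 sites, of which 62 had a peak in both CBP_60h libraries and 51 in neither. Besides RUNX1, these included TEAD1 with 17 sites, NFIX with 9 and TCF12 with 8. The shares were 18 of 61 for contractile genes (33 sites, 12 kept and 15 in neither), 10 of 29 for excitation-contraction coupling (23 sites, 10 and 10) and 13 of 26 for fusion and adhesion (28 sites, 10 and 14). For the dystrophin complex they were 9 of 20, with 29 sites, of which 7 were kept and 16 in neither, and for satellite cell genes 11 of 31, with 43 sites (14 and 19). Of 30 cell cycle genes 4 were nearest to a site and of 33 metabolic genes also 4. Genes with many sites are long ones: the median length was 66.8 kb over the 2494 genes, 225 kb over the 29 with 10 or more sites and 20.7 kb over all genes.

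Among lists of other cell types the share of genes beside sites ran up to 51.6%, against 12.8% of all genes. Of 31 extracellular matrix and fibroblast genes 16 were nearest to a site. COL1A2 had 13 of their 51 sites and COL5A1 12, 11 of the 51 were kept in both CBP_60h libraries and 32 had no peak in either. The counts were 2 of 15 adipocyte genes (EBF1 and EBF2), 2 of 11 endothelial and mural genes (CSPG4 and CDH5), 1 of 9 immune genes (CSF1R) and 3 of 14 neuronal and glial genes (SYN1, NEFL and GAP43). Summed H3K4me3 of the matrix list was 73.5 and 74.4 kb in WT_0h, 101 and 97.7 kb in WT_60h and 96.0 and 96.4 kb in CBP_60h. That of the adipocyte list was 12.6 and 11.5 kb, 24.8 and 23.1 kb, and 25.3 and 23.8 kb in the same groups. The contractile list went from 46.8 and 46.6 kb to 164 and 160 kb, and stood at 99.7 and 106 kb in CBP_60h. At 0 in every library were 3 of 31 matrix genes, 5 of 15 adipocyte genes, 8 of 11 endothelial and mural genes, 6 of 9 immune genes and 10 of 14 neuronal and glial genes. The part of other cells in the site counts was not tested.

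H3K4me3 near gene ends rose with differentiation at just over 50% of the genes beside sites. Of the 2494 genes, 2048 passed the length filter, and 1087 (53.1%) were higher in WT_60h than in WT_0h by limma, against 41.5% of all 12908 genes tested. Another 73 (3.56%) were lower, against 5.62%, and 47 without WT_60h replicate 2. Median log2 changes were 0.24 beside sites and 0.17 over all genes. With quantile scaling, 578 were higher and 404 lower, against 17.7% and 26.2% of all genes, and the medians became 0.01 and −0.06. The H3K4me3 lists as a whole also differed with time. Their peaks covered 21.53 and 21.79 Mb in WT_0h and 27.02 and 26.18 Mb in WT_60h. The median −log10 p of the peaks was 32.8 and 30.6 in WT_0h and 86.3 and 87.7 in WT_60h. Beyond the quantile scaling, the part of these differences in the rises was not tested. The share that rose was 50.6% of genes with 1 site, 55.8% with 2 to 3, 58.7% with 4 to 9 and 65.2% of the 23 with 10 or more. For the 859 genes nearest to a stable but to no gained distal site it was 41.2%.

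In treated cells at 60 h, H3K4me3 was lower than in untreated cells at about 12% of the genes beside sites. Of the 2048 genes, 247 (12.1%) were lower in CBP_60h than in WT_60h by limma, against 6.49% of all genes tested, and 154 (7.52%) were higher, against 9.88%. The lower share was 10.6% with 1 site, 13.6% with 2 to 3, 15.3% with 4 to 9 and 21.7% of the 23 genes with 10 or more. It was 13.0% of the 872 genes with no site kept in either CBP_60h library and 7.63% of the 354 genes with every site kept in both. The lower genes numbered 157 without CBP_60h replicate 1, 134 without WT_60h replicate 1 and 164 without WT_60h replicate 2. The higher ones numbered 88 and 95 without CBP_60h replicates 1 and 2, and 82 and 81 without WT_60h replicates 1 and 2. Both comparisons share the WT_60h libraries of H3K4me3, which are other libraries than those of H3K27ac that chose the sites.

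**Figure D5:**
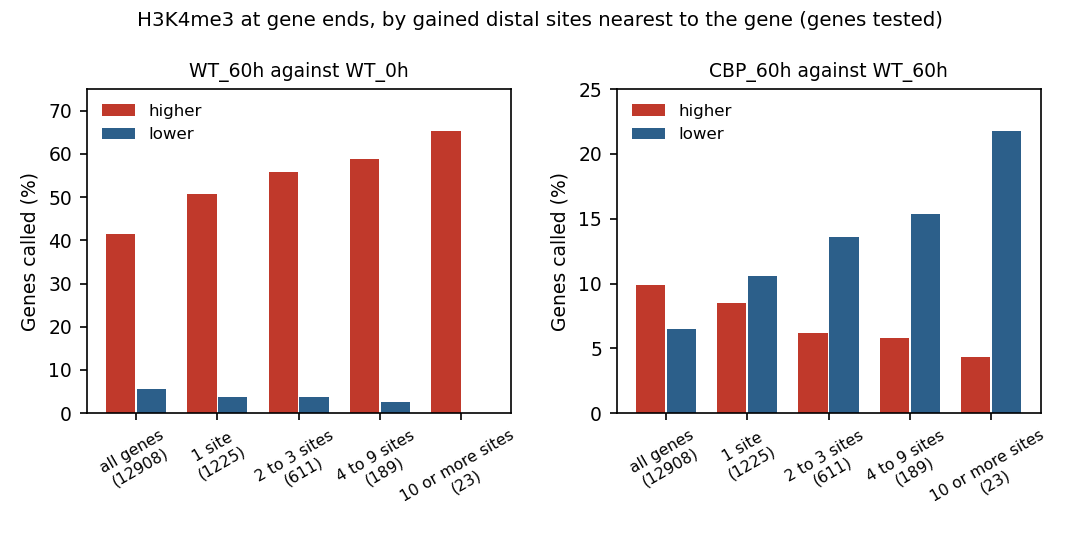
Share of genes (bars, percent of those tested, number in brackets) with H3K4me3 called higher or lower by limma near their ends, for all genes and for genes nearest to 1, 2 to 3, 4 to 9 and 10 or more gained distal sites. The left panel compares WT_60h with WT_0h, where 65.2% of genes with 10 or more sites were higher, and the right panel CBP_60h with WT_60h, where 21.7% of them were lower.

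Among gene lists, contractile genes beside sites rose with differentiation and were lower with treatment. H3K4me3 rose with differentiation at 12 of 15 tested and was lower in CBP_60h at 11 of the 15, with none called the other way. Over all genes tested, 41.5% rose and 6.49% were lower in CBP_60h. Beside sites, 8 of 10 genes of excitation-contraction coupling rose and 3 were lower in CBP_60h, and of 8 dystrophin complex genes 7 rose and 5 were lower. Of 22 myogenic factors and partners 15 rose and 1 fell, while in CBP_60h 3 were lower and 3 higher. Of 14 matrix genes 10 rose and 1 fell, with 4 lower and 2 higher in CBP_60h. Of 10 satellite cell genes 5 rose, a share near that of all genes, and in CBP_60h none was lower and 1 higher. The 15 contractile genes beside sites had a median log2 change of 2.40 with differentiation and −0.86 in CBP_60h, against 0.17 and 0.04 over all genes.

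The genes beside sites with the largest rises in H3K4me3 included many muscle genes. All 10 had 0 kb in both WT_0h libraries. They were ACTC1, LOC110257484, NKAIN4, LOC396711, EEF1A2, CHRNA1, KLHL30, MYMK, ACTA1 and MYL1. EEF1A2, the translation elongation factor form of muscle and nerve, went from 0 to 4.93 and 5.16 kb in WT_60h and was listed at 0 kb in CBP_60h. NKAIN4 went to 6.17 and 5.51 kb and stood at 1.49 and 1.86 kb in CBP_60h. KLHL30 went to 4.83 and 4.99 kb and stood at 0.958 and 1.04 kb. Of the 10, 9 were lower in CBP_60h by limma with adjusted p up to 0.00626; LOC396711, with 5.35 and 5.49 kb against 4.88 and 5.34 kb, was not (adjusted p = 0.392). The 10 were chosen for high values in WT_60h, which favours a lower value in CBP_60h, so this count is a description; 6.49% of all genes were called lower.

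Falls beside sites were fewer. The 5 largest were ROBO1, a guidance receptor, THBD, ESM1, LBH and GIPC2. ESM1, which encodes a secreted proteoglycan, had 4.88 and 5.12 kb in WT_0h, 1.29 and 1.57 kb in WT_60h, 4.26 and 4.38 kb in CBP_0h and 0.966 and 0.873 kb in CBP_60h. H3K27ac thus appeared at a distal site in its gene body while H3K4me3 near its ends became shorter. THBD and LBH went from 0.971 and 1.32 kb and from 0.906 and 0.912 kb to 0 kb.

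In CBP_60h the largest reductions against WT_60h were at EEF1A2, MYL1, MEF2C, CAVIN4 and GNAS, each of which was listed at 0 kb in CBP_60h. CAVIN4, a caveola protein of muscle, had 3.30 and 3.79 kb in WT_60h, and GNAS, the stimulatory G protein subunit, 3.59 and 3.25 kb. GNAS kept H3K27ac at 2 of its 3 sites in both CBP_60h libraries. The largest increases were at CMPK2, ZFHX3, KHNYN, TACR1 and SLC2A6. TACR1, a tachykinin receptor, had 0.438 and 1.08 kb in WT_60h and 3.04 and 3.01 kb in CBP_60h (limma, adjusted p = 0.00762). CMPK2, a mitochondrial nucleotide kinase, had 0 kb in WT_60h and 1.56 and 1.74 kb in CBP_60h.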

How the data were processed

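H3K27ac, H3K4me3 and H3K27me3 were profiled in 24 libraries, and 8 IgG samples were not analysed here. The authors used Trimmomatic, MACS2 2.1.0 and the build Sscrofa11.1, per the submitters' processing notes; aligner, options and depth were not named there. The deposited score is the display score of the peak caller, the deposited ratio is a fold enrichment over local background, and the deposited −log10 p and q values give each peak's significance. They are set within a library and served here to rank and filter peaks. Another deposited column gives the summit offset.

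Peaks on placed chromosomes were merged in Python 3.11.15 with pandas 2.3.3 and numpy 2.4.6. The table of 19550 protein-coding genes (RefSeq, Sscrofa11.1) gave no strand, so distances run to both ends. limma 3.58.1 in R 4.3.3 (eBayes with trend and robust) was fitted to 8 libraries, with 4 residual degrees of freedom, on log2 of base pairs plus 200 per region (at least 100 bp in 2 libraries) or plus 500 per gene (at least 200 bp in 2). Benjamini-Hochberg adjustment ran over all features, with calls below 0.05, and the fits were tested on simulated data. Shares were compared by exact permutation tests. The members, the 17 gene lists (437 of 464 genes found) and the panel were chosen with earlier results of these data known. Named were the panel, the 10 strongest sites, the 6 largest changes each way, the 10 largest groups, the 10 genes with most sites and the largest H3K4me3 changes (10 and 5 with differentiation, 5 and 5 with treatment). Alternatives covered thresholds, list length, distance, pseudocounts, filters, scaling, a replicate block and left-out libraries. Of the sites so named, 2 are not reported here. No sequence is shown.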

Additional observations from a re-analysis of the deposited data

Results flagged for a closer look

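Only the 10 genes beside gained distal sites named for the largest H3K4me3 differences between CBP_60h and WT_60h were looked at here. At each of the 10, the interaction term of the limma fit passed at an adjusted p below 0.05. The difference between treated and untreated cells was thus not the same at 60 h as at 0 h. The 10 are not a count over all genes. Other named genes passed too, among them MYOD1 (limma, adjusted p = 0.000842) and ACTA1 (limma, adjusted p = 0.000667). The 10 had been named for their large difference at 60 h, so its direction and size at that time were part of the choice. The p values below are therefore a description. The values given are kb of H3K4me3 within 5 kb of the gene ends, as the mean difference of CBP from WT at 60 h less that at 0 h.

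Values were below 0 at 5 genes. They were −5.04 kb for EEF1A2 (limma, adjusted p = 0.000138), −4.29 kb for MYL1 (adjusted p = 0.000193), −3.90 kb for MEF2C (adjusted p = 0.000241), −3.54 kb for CAVIN4 and −3.42 kb for GNAS (both with limma adjusted p = 0.000217). All 5 had no listed base near their ends in both groups of 0 h and in CBP_60h. At these 5 genes the interaction thus equals the difference at 60 h that they were chosen by, and is no separate result.

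Values were above 0 at the other 5. They were 2.51 kb for TACR1 (limma, adjusted p = 0.00873), 1.95 kb for CMPK2 (adjusted p = 0.00075), 1.79 kb for ZFHX3 (adjusted p = 0.0011), 0.968 kb for KHNYN (adjusted p = 0.000817) and 0.771 kb for SLC2A6 (adjusted p = 0.00181). At CMPK2, ZFHX3 and TACR1 the treated libraries of 0 h had less H3K4me3 than the untreated ones on average (−0.301, −0.552 and −0.246 kb), and those of 60 h had more. The cause of these differences was not tested.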

How the results depend on the processing

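The number of gained distal sites was 5145 and became 2915 with peaks of −log10 q of at least 5 and 1772 with lists of equal length. Without any 1 untreated library it was 5461 to 7484. The share with H3K27ac in CBP_60h exceeded that in CBP_0h by 30.4 to 39.7 points under most settings. These were other distances, a least coverage, stricter peaks, equal lists and any 1 CBP library left out. When the rule left out WT_60h replicate 2, the shares were 35.8% and 29.8% in CBP_60h and 4.13% and 2.79% in CBP_0h, a smaller gap. Sites called longer in CBP_60h numbered 664 with the stricter peaks and 605 with equal lists, against 1457, and 1373 to 2077 without any 1 CBP library. Sites called shorter, 48, became 30 with the stricter peaks, 236 with quantile scaling and 56 to 86 without 1 library. The gap in H3K27me3 between WT_60h and WT_0h, 0.0389 points with groups that overlapped, became −0.0194 with equal lists. The groups did not overlap with equal lists, at 0.0583% in both WT_0h and 0.0389% in both WT_60h libraries.

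For genes beside sites, rises with differentiation numbered 578 and falls 404 with quantile scaling, against 1087 and 73, and 795 to 901 and 47 to 60 without 1 library. In CBP_60h, 247 lower and 154 higher genes became 134 to 167 and 81 to 95 without 1 library. Of 472 alternative values of 55 named gene results, 459 kept their direction and call, 11 lost the call and 2 turned. The 2 were IGF2 (−0.0499) and SAMD4A (−0.0403) with quantile scaling, WT_60h against WT_0h. The cause was not tested. A group left with 1 library was assumed to vary like the others.

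Replicate numbers did not pair libraries, with correlations of deviations of −0.00676 for H3K27ac and 0.0255 and −0.0401 for H3K4me3. With a replicate block, 1449 sites were longer and 48 shorter, 1031 genes rose and 70 fell, and 225 were lower and 130 higher in CBP_60h. Depth is not given, so no limit of detection could be set for a missing peak.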
